A study of Homo sapiens with 12 samples.

Results

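SLC16A6 and the other genes of the SLC16A family, the monocarboxylate transporters, were described in U-87MG, an established cell line from a human glioblastoma. The members are the rows of the deposited table whose only gene symbol starts with SLC16A and a number: 8 genes of 13530 genes with 1 symbol, each with 1 transcript cluster (the probes summarised into 1 value). They are SLC16A1, SLC16A3, SLC16A4, SLC16A5, SLC16A6, SLC16A7, SLC16A13 and SLC16A14, of the 14 coding genes of the family; the other members were not analysed here. SLC16A6 was chosen by its measured signal, which differed between the ligands and the solvent in these same arrays. All of its differences between groups are therefore given as a description, with no test. The other 7 genes were taken by their symbol alone.

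All cells came from 1 stable line infected with a lentivirus that carries a control shRNA (shCtrl). They were treated for 24 h with DMSO, the solvent (at most 0.2% of the medium), with FICZ at 100 nM or with kynurenic acid (KynA) at 50 µM, in 3 groups of 4 biological replicates, 1 Affymetrix array each. FICZ, an indolocarbazole formed from tryptophan by light, and KynA, a metabolite of tryptophan, are ligands of the aryl hydrocarbon receptor (AHR), and the study asked how the line's expression responds to them. Nothing in the sources used here says whether the replicates came from separate cultures or days, so the p-values rest on a spread between samples that may be technical.

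Monocarboxylate transporters are membrane proteins that carry small organic acids such as lactate, pyruvate and ketone bodies, in the best known members together with a proton. Glycolytic tumour cells, gliomas among them, release lactate through such carriers. SLC16A1 (MCT1), SLC16A7 (MCT2) and SLC16A3 (MCT4) are the established lactate and pyruvate carriers, whereas other members carry aromatic amino acids, carnitine or creatine, and some have no settled substrate. SLC16A6 (MCT7) is known in zebrafish as an exporter of ketone bodies from liver cells, and the human protein has been described as a carrier of taurine.

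Values are log2 signals, on which a difference of 1 is a doubling. Correlations between arrays lay between 0.938 and 0.975. A gene was tested if at least 4 arrays had it above their 25th percentile, a filter value of 7.687 to 7.743, which left 10807 genes. Of the 7 fixed markers of the line, all were tested, and their mean lay between 10.65 and 10.84 on every array, with vimentin (VIM) at 12.87 to 13.20, while NES (7.90 to 8.34) and GFAP (7.74 to 8.46) were dimmer. The fixed lists for myeloid, endothelial, epithelial, neuronal and oligodendrocyte cells had array means between 6.93 and 8.41 over their members with a row. Single members differed. SNAP25 (8.93 to 9.41), CDH1 (8.39 to 9.05) and CSF1R (8.20 to 9.03) were brighter on average than NES and GFAP. So were KDR (8.11 to 8.87) and AIF1 (7.85 to 8.79), while MAG (6.22 to 7.39) was dimmer. In these lists 4 myeloid, 2 endothelial, 2 epithelial, 2 neuronal and 1 oligodendrocyte markers were tested. Of these, 1 passed with FICZ, where 0.851% of all tested genes did, and none passed with KynA. It was the endothelial receptor KDR, which rose by 0.48 (limma adjusted p = 0.0293). Over 21 alternatives its adjusted p ran from 0.0168 to 0.0854, and it did not pass in 7 of them. The other tested endothelial marker, VWF, was at −0.10 (adjusted p = 0.854). Among the markers that did not pass with FICZ, the myeloid ITGAM was at 0.72 (adjusted p = 0.257) and the oligodendrocyte MBP at 0.47 (0.258). The endothelial list's array means were 7.74 to 7.78 with DMSO, 7.85 to 8.13 with FICZ and 7.75 to 8.10 with KynA, while PECAM1 and CDH5 were not analysed here; its part in the results was not tested.

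SLC16A6 took 3 separate levels. With DMSO its log2 signal was 6.98, 7.36, 7.68 and 7.64 on arrays 1 to 4. With KynA it was 8.91, 8.49, 8.87 and 8.62. With FICZ it was 9.91, 9.86, 9.94 and 9.99. No array of one group reached into the range of another: the lowest KynA array lay 0.82 above the highest DMSO array, and the lowest FICZ array lay 0.95 above the highest KynA array. The group means were 7.42 ± 0.322 with DMSO, 8.72 ± 0.199 with KynA and 9.93 ± 0.0547 with FICZ (SD, n = 4). The difference from DMSO was 2.51 ± 0.139 with FICZ and 1.31 ± 0.139 with KynA (log2, SE, n = 4), or 5.70-fold and 2.47-fold on the signal scale over a DMSO signal below the filter value on each array, and FICZ lay 1.20 ± 0.139 above KynA, at unequal doses. Both ligands were set against the same 4 DMSO arrays. The arrays measure RNA pooled from all cells of a well, so more RNA per cell and more cells that carry it cannot be told apart.

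An order of DMSO below KynA below FICZ with no overlap between arrays was found for 18 of 10807 genes, 0.167% of those tested, and the opposite order for 10, 0.0925%. SLC16A6 is 1 of the 18 and was chosen for this change. Its smaller gap between neighbouring groups was 0.82. The gene with the next widest, the AHR-induced feedback inhibitor TIPARP, had a smaller gap of 0.13.

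The baseline of SLC16A6 was dim. All 4 DMSO arrays lay below the filter value and all 8 treated arrays above it, so the gene entered the tested set through its treated arrays. The spread was uneven between groups. With DMSO the SD was larger than that of 95.7% of tested genes, and DMSO 1 was the lowest array, at 6.98. With FICZ it was larger than that of 5.29% of tested genes. Without DMSO 1 the difference was 2.37 with FICZ and 1.16 with KynA. Over the 12 fits that left out 1 array it ran from 2.37 to 2.60 with FICZ and from 1.16 to 1.39 with KynA.

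**Figure D1:**
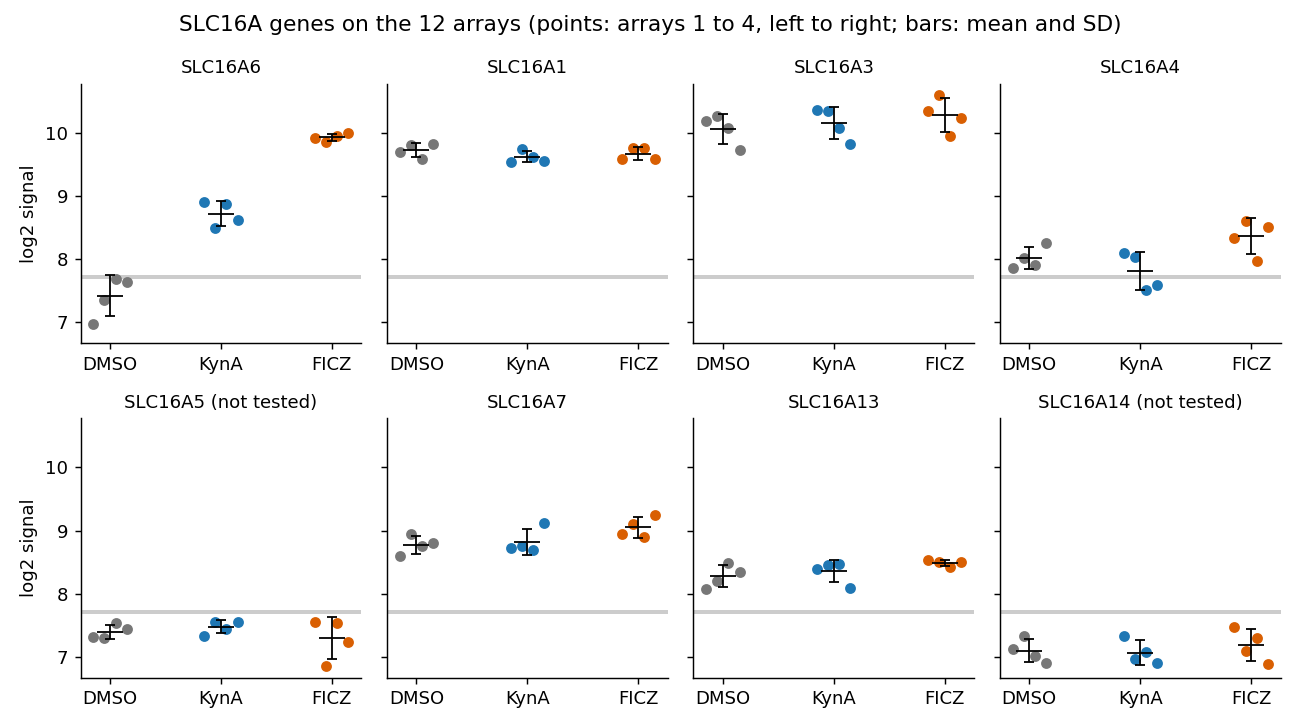
Log2 signal (vertical axis) of the 8 SLC16A genes by group, with 1 point per array, arrays 1 to 4 from left to right, and the mean with its SD as a bar; the grey band is the range of the filter value. SLC16A6 rises from means of 7.42 with DMSO to 8.72 with KynA and 9.93 with FICZ without overlap, while the groups of each other gene overlap.

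None of the other 5 tested members passed in any of the 3 comparisons (limma, Benjamini-Hochberg adjusted over 10807 genes). Against DMSO, 92 genes, 0.851% of those tested, passed with FICZ and 1 gene, 0.00925%, with KynA; between the ligands 1 gene, 0.00925%, passed. SLC16A6 is that 1 gene in the last 2 comparisons and is among the 92, and nothing is read from this, since it was chosen there. At an unadjusted p under 0.05, 2 of the 5 differed with FICZ (SLC16A4 and SLC16A7, where 14.5% of all tested genes did), 0 of 5 with KynA (3.39%) and 1 of 5 between the ligands (SLC16A4; 8.34%). With FICZ 4 of the 5 values were positive and 1 was negative. The arrays of each of the 5 overlapped between the groups in every comparison, where those of 7.86% of all tested genes did not with FICZ against DMSO, 2.41% with KynA against DMSO and 4.18% between the ligands.

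The lactate and pyruvate carriers come first. SLC16A1, the broadly expressed carrier, had signals of 9.69, 9.81, 9.59 and 9.82 with DMSO, 9.58, 9.76, 9.76 and 9.59 with FICZ, and 9.54, 9.75, 9.61 and 9.56 with KynA. All 12 arrays lay within 0.28 of each other and the groups overlapped. Its difference from DMSO was −0.06 with FICZ (95% interval −0.24 to 0.12; limma adjusted p = 0.793) and −0.11 with KynA (−0.30 to 0.07; adjusted p = 1), and between the ligands it was 0.06 (−0.12 to 0.24; adjusted p = 0.884). These are the narrowest intervals among the 5 genes.

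SLC16A3, the lactate exporter of glycolytic cells and a known target of hypoxia signalling, had signals of 10.18, 10.26, 10.07 and 9.73 with DMSO, 10.35, 10.59, 9.95 and 10.23 with FICZ, and 10.36, 10.35, 10.08 and 9.82 with KynA. The groups overlapped. The lowest array of the DMSO and KynA groups was array 4, and the highest of all was FICZ 2. The differences were 0.22 with FICZ (95% interval −0.11 to 0.55; limma adjusted p = 0.539), 0.09 with KynA (−0.24 to 0.42; adjusted p = 1) and 0.13 between the ligands (−0.20 to 0.46; adjusted p = 0.859). Without DMSO 4 the KynA value was −0.02.

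SLC16A7, a high-affinity carrier of pyruvate and lactate, had signals of 8.60, 8.95, 8.75 and 8.81 with DMSO, 8.94, 9.11, 8.90 and 9.24 with FICZ, and 8.73, 8.75, 8.69 and 9.12 with KynA. FICZ arrays stood mostly at the upper end, yet FICZ 1 and FICZ 3 lay below DMSO 2. The differences were 0.27 with FICZ (95% interval 0.02 to 0.51; limma adjusted p = 0.3), 0.04 with KynA (−0.20 to 0.29; adjusted p = 1) and 0.22 between the ligands (−0.02 to 0.47; adjusted p = 0.635). KynA 4, at 9.12, stood above the other KynA arrays, and without it the KynA value was −0.05; without DMSO 1 it was −0.01.

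SLC16A13, a carrier for which lactate transport has been reported, had signals of 8.08, 8.21, 8.49 and 8.35 with DMSO, 8.53, 8.50, 8.43 and 8.51 with FICZ, and 8.40, 8.45, 8.48 and 8.10 with KynA. The FICZ arrays were close together (SD 0.044) at the upper end of the DMSO range, and only DMSO 3 reached into them. The differences were 0.21 with FICZ (95% interval −0.01 to 0.43; limma adjusted p = 0.366), 0.08 with KynA (−0.14 to 0.30; adjusted p = 1) and 0.13 between the ligands (−0.09 to 0.36; adjusted p = 0.76).

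SLC16A4, a member with no settled substrate, had signals of 7.86, 8.02, 7.91 and 8.25 with DMSO, 8.33, 8.61, 7.97 and 8.51 with FICZ, and 8.10, 8.03, 7.51 and 7.59 with KynA. KynA 3 and KynA 4 lay below the filter value, and FICZ 3 lay within the range of both other groups. Its difference from DMSO was 0.35 with FICZ (95% interval 0.01 to 0.69; limma adjusted p = 0.333) and −0.20 with KynA (−0.54 to 0.14; adjusted p = 1). FICZ lay 0.55 above KynA (0.21 to 0.89; adjusted p = 0.383), the widest difference between the ligands among these 5 genes.

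The other 2 members were below the filter value on all 12 arrays and were not tested. SLC16A5, a carrier of some drugs, had signals between 6.86 and 7.56, with means of 7.40 ± 0.111 with DMSO, 7.30 ± 0.332 with FICZ and 7.48 ± 0.106 with KynA (SD, n = 4). SLC16A14, whose substrates are not settled, lay between 6.89 and 7.48, with means of 7.10 ± 0.184, 7.19 ± 0.255 and 7.07 ± 0.197. The groups of both overlapped.

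**Figure D2:**
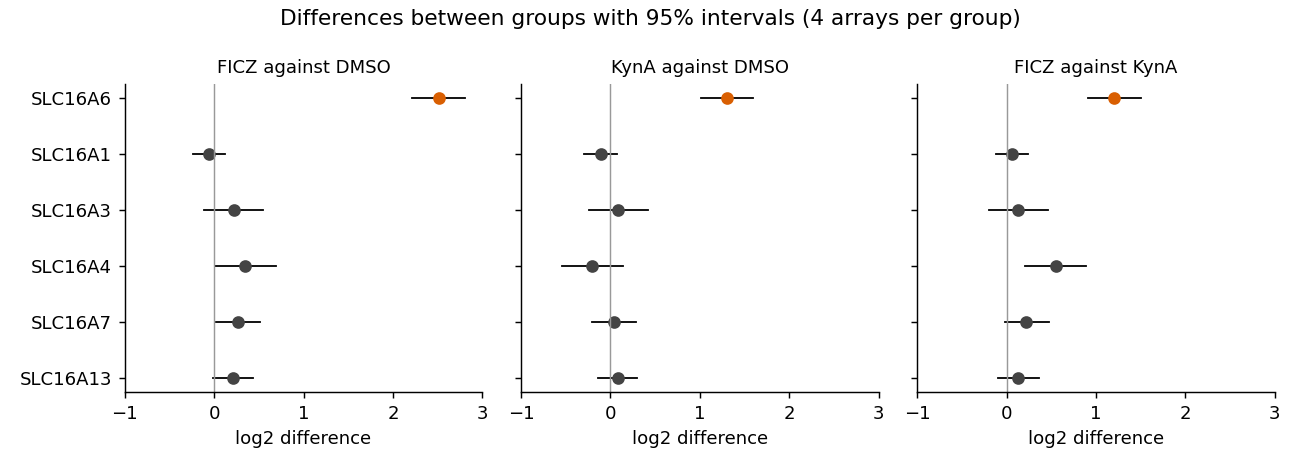
Log2 difference (horizontal axis) of the 6 tested SLC16A genes in the 3 comparisons, with points for the estimate and lines for the 95% interval. SLC16A6, at 2.51, 1.31 and 1.20, was chosen for its change on these arrays, so its place and its interval are a description and no test. Among the other 5 genes the highest bound is 0.89, for SLC16A4 between the ligands.

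Lactate carriers reach the plasma membrane with a partner glycoprotein. BSG (basigin), the partner of SLC16A1 and SLC16A3, differed from DMSO by −0.10 with FICZ (95% interval −0.26 to 0.07; limma adjusted p = 0.585) and by −0.03 with KynA (−0.20 to 0.14; adjusted p = 1). NPTN (neuroplastin), a related partner, differed by −0.05 (−0.29 to 0.19; adjusted p = 0.881) and 0.05 (−0.19 to 0.29; adjusted p = 1). Neither of these 2 genes of a list of 3 passed, and none had an unadjusted p under 0.05.

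Genes that make or use the substrates of the family were counted next, with FICZ against DMSO. Of all tested genes, 14.5% had an unadjusted p under 0.05 with FICZ and 3.39% with KynA, against which the counts of the lists stand. Of 18 tested genes of lactate and pyruvate metabolism none passed, and 1 had an unadjusted p under 0.05; the list's median was −0.04, against −0.03 for all tested genes. PDP1, the phosphatase that switches pyruvate dehydrogenase on, had the highest value, 0.35 (limma adjusted p = 0.132). None of 7 tested genes of ketone body metabolism passed (1 with an unadjusted p under 0.05; median 0.04), with values of −0.28 for the mitochondrial thiolase ACAT1 (adjusted p = 0.232) and 0.31 for the synthase HMGCS1 (adjusted p = 0.476). None of 5 tested genes of the fasting and PPAR response passed or had an unadjusted p under 0.05 (median 0.05); ACADM, an acyl-CoA dehydrogenase, was at 0.18 (adjusted p = 0.409). None of 5 tested genes of taurine and creatine synthesis passed or had an unadjusted p under 0.05 (median 0.14), among them CSAD, an enzyme of taurine synthesis, at 0.25 (adjusted p = 0.406) and the creatine kinase CKMT2 at 0.22 (adjusted p = 0.38). With KynA none of the members of these 4 lists passed, and 1 had an unadjusted p under 0.05, the pyruvate dehydrogenase kinase PDK2, at −0.28 (adjusted p = 1).

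Of 17 tested genes of glucose uptake and glycolysis, the source of pyruvate and lactate, 2 rose with FICZ, against 0.601% of all tested genes. Hexokinase 2 (HK2) rose by 0.55 ± 0.103 (SE, n = 4; limma adjusted p = 0.0242) and the glucose transporter SLC2A1 by 0.51 ± 0.102 (adjusted p = 0.0336). Over 21 alternatives the value ran from 0.49 to 0.63 for HK2 and from 0.48 to 0.57 for SLC2A1, while the calls changed. HK2 did not pass without DMSO 1 (adjusted p = 0.073), DMSO 2 (0.0534), DMSO 4 (0.0806), FICZ 1 (0.0561) or FICZ 4 (0.0817), and SLC2A1 did not pass without DMSO 1 (0.0868), DMSO 3 (0.102), DMSO 4 (0.114), FICZ 2 (0.0974), FICZ 3 (0.066) or FICZ 4 (0.0938). GAPDH, a glycolytic enzyme, was at −0.22 (adjusted p = 0.299), and 8 values of the list were positive and 9 negative. Of 9 tested regulators of pH none passed, and 1 had an unadjusted p under 0.05 (14.5% of all tested genes). The median of the list was 0.07, with the bicarbonate transporter SLC4A4 at 0.17 (limma adjusted p = 0.309) and the carbonic anhydrase CA12 at 0.12 (adjusted p = 0.635). With KynA none of the glycolysis or pH genes passed, and 1 had an unadjusted p under 0.05 (3.39% of all tested genes), HK2, at 0.29 (adjusted p = 1).

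Carriers outside the family that share its substrates were a fixed list of 17, of which 13 were tested. None passed with either ligand, and 2 with FICZ (14.5% of all tested genes) and 1 with KynA (3.39%) had an unadjusted p under 0.05. The median was 0.10 with FICZ and 0.09 with KynA. SLC7A8 (LAT2), an exchanger of neutral and aromatic amino acids, had the highest values, 0.39 with FICZ (95% interval 0.20 to 0.58; limma adjusted p = 0.0581) and 0.34 with KynA (0.15 to 0.53; adjusted p = 0.719). Its arrays did not overlap with DMSO in either comparison, as in the higher direction for 2.94% of all tested genes with FICZ and 1.13% with KynA. It passed with FICZ under cyclic loess (adjusted p = 0.0243), under the filter at the 50th percentile (0.0343), with a trended, robust variance (0.0263) and without DMSO 4 (0.0442). SLC7A5 (LAT1), the related exchanger that brings tryptophan and kynurenine into cells, was at 0.31 with FICZ (0.10 to 0.52; adjusted p = 0.162) and 0.13 with KynA (−0.08 to 0.34; adjusted p = 1).

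Among all 198 tested solute carrier genes outside the family, SLC2A1 was the 1 that passed with FICZ, where 0.851% of all tested genes did, and none passed with KynA. An unadjusted p under 0.05 was found for 32 of the 198 with FICZ (14.5% of all tested genes) and for 7 with KynA (3.39%). Their median difference was 0.02 with FICZ and 0.01 with KynA. The range was −0.42 to 0.66 with FICZ and −0.64 to 0.37 with KynA, and SLC16A6, at 2.51 and 1.31, lay above it in both. Between the ligands the range was −0.59 to 1.01, with SLC16A6 at 1.20. SLC16A6 was chosen on these arrays, so its place is a description. The highest values with FICZ were 0.66 for the dicarboxylate transporter SLC13A3 (limma adjusted p = 0.234), 0.51 for SLC2A1 and 0.40 for the potassium-chloride cotransporter SLC12A5 (adjusted p = 0.21). The lowest values were −0.42 for the anion exchanger SLC26A4 (adjusted p = 0.29), −0.41 for the sugar transporter SLC2A8 (0.0909) and −0.41 for the zinc transporter SLC39A1 (0.114). SLC13A3 passed without FICZ 1 (value 0.94, limma adjusted p = 0.0284) and SLC12A5 without FICZ 3 (value 0.55, adjusted p = 0.0377). SLC2A8 passed with the replicate number as a block (value −0.41, adjusted p = 0.0475).

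**Figure D3:**
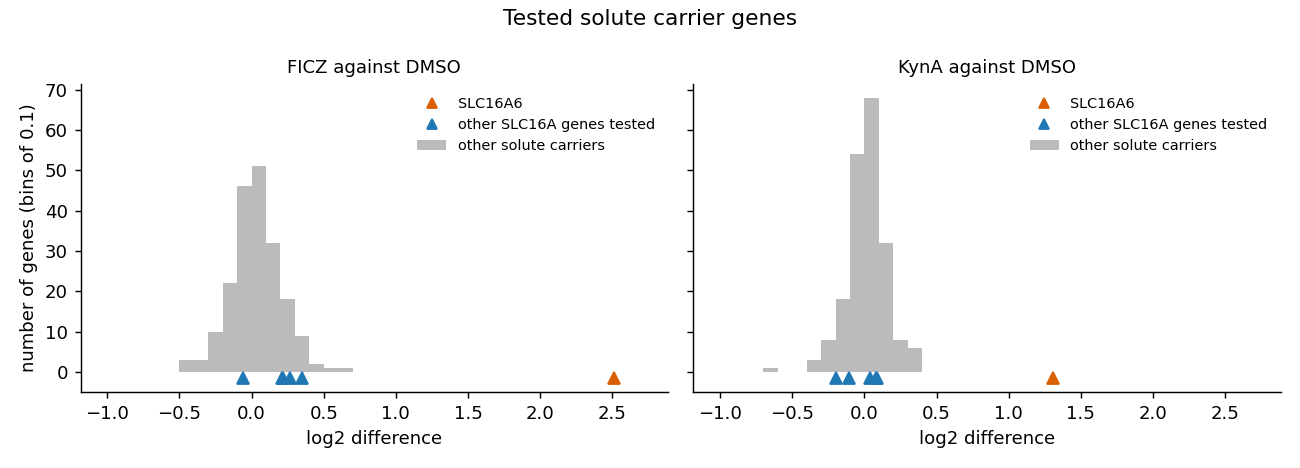
Number of tested solute carrier genes outside the SLC16A family (grey bars, vertical axis) by log2 difference (horizontal axis, bins of 0.1), with FICZ on the left and KynA on the right; triangles below the bars mark the 6 tested SLC16A genes. SLC16A6 lies at 2.51 and 1.31, beyond the highest grey values of 0.66 and 0.37, and the other SLC16A genes lie within the grey range.

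SLC16A6 lies within the span of ARSG, the gene of the lysosomal arylsulfatase G, in RefSeq's annotation of GRCh38.p14, and its signal was set beside ARSG and the nearest 6 coding genes on each side. ARSG had signals below the filter value on average, with means of 7.008 ± 0.0971 with DMSO, 7.141 ± 0.325 with FICZ and 6.874 ± 0.374 with KynA (SD, n = 4), and it was not tested. Its FICZ arrays overlapped with its DMSO arrays. Of 13 neighbours, 7 were tested and 1 rose with FICZ, where 0.601% of all tested genes did. It was PITPNC1, which codes for a phosphatidylinositol transfer protein and is the outermost of the 6 genes on its side. With DMSO its signals were 10.02, 10.09, 10.03 and 10.01 on arrays 1 to 4. With FICZ they were 10.71, 10.63, 10.71 and 10.31, and with KynA 10.39, 10.34, 10.23 and 10.30. All treated arrays lay above the DMSO arrays, and FICZ 4 lay within the KynA range. PITPNC1 rose by 0.55 ± 0.0916 (SE, n = 4; limma adjusted p = 0.0117) and had a value of 0.28 ± 0.0916 with KynA (adjusted p = 1). Its adjusted p with FICZ ran from 0.00167 to 0.0478 over 21 alternatives.

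None of the other 6 tested neighbours passed. NOL11, a ribosome assembly factor, was at −0.34 with FICZ (limma adjusted p = 0.0581), KPNA2, a nuclear import receptor, at −0.22 (adjusted p = 0.178) and WIPI1, an autophagy protein, at 0.18 (adjusted p = 0.304). The arrays of these 3, like those of PITPNC1, did not overlap between FICZ and DMSO, as for 7.86% of all tested genes. NOL11 passed under the filter at the 50th percentile (adjusted p = 0.0343), with a trended, robust variance (0.0363) and with the replicate number as a block (0.0485). FAM20A, which was not tested, was at 0.39 with FICZ, with arrays of 7.40 to 7.72 against 6.83 to 7.39 with DMSO. Over the 7 tested neighbours the median was −0.03 with FICZ and −0.01 with KynA, the same as over all tested genes. An unadjusted p under 0.05 was found with FICZ for 4 of the 7, 2 of them higher (14.5% of all tested genes). With KynA it was found for 1 (3.39%), and between the ligands for 3 (8.34%).

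**Figure D4:**
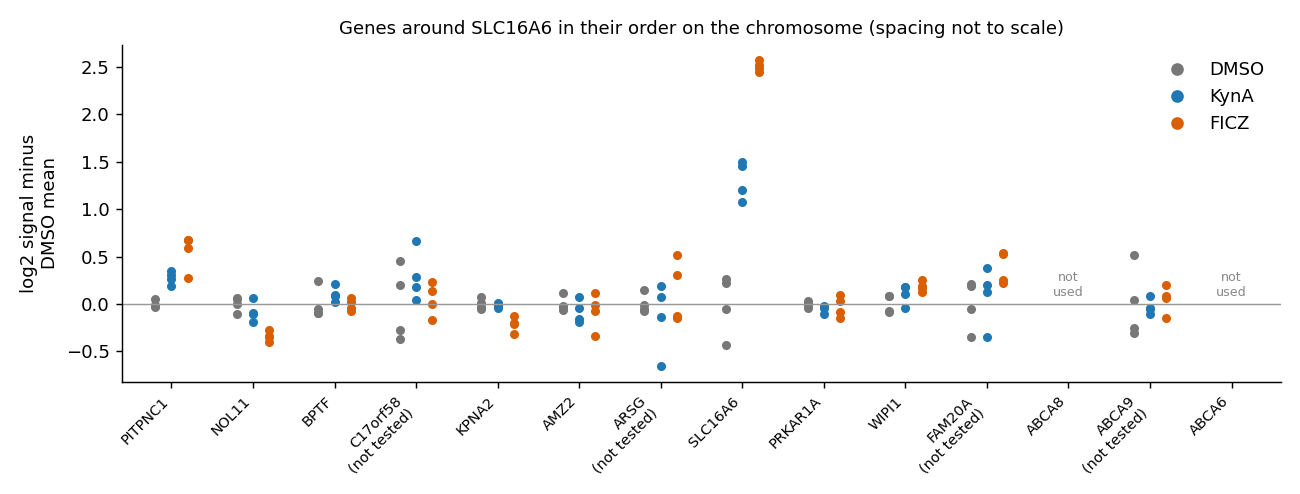
Log2 signal minus the gene's DMSO mean (vertical axis) for SLC16A6, ARSG and the nearest 6 coding genes on each side in chromosome order (horizontal axis, not to scale), 1 point per array and 1 colour per group. SLC16A6 stands at 2.51 with FICZ and 1.31 with KynA, PITPNC1 at 0.55 and 0.28, and the other means lie between −0.34 and 0.39 with FICZ. The highest of these is FAM20A, which was not tested.

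The genes whose signal was most like that of SLC16A6 over the 12 arrays were ranked by Pearson's r among the other 10806 tested genes, as a description. The arrays share their groups, so r mostly follows the order of the group means, and the genes are not independent of the change for which SLC16A6 was chosen; no test is given for them. The 10 highest were NPAS2, a clock transcription factor (r = 0.98), GREM1, an antagonist of bone morphogenetic proteins (0.98), SECTM1, a secreted and membrane protein (0.96), TIPARP (0.96), LPXN, an adhesion adaptor (0.96), NPTX1, a neuronal pentraxin (0.96), ALDH1A3, an enzyme of retinoic acid synthesis (0.95), LACC1, an enzyme of macrophage metabolism (0.94), the growth factor FGF2 (0.94) and the microtubule protein EML1 (0.94). The lowest 3 were DEPDC1B (−0.94), the nucleolar regulator LYAR (−0.92) and the linker histone HIST1H1B (−0.91).

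The like genes had the same order of group means, with smaller differences from DMSO than SLC16A6. NPAS2 had signals of 10.46, 10.50, 10.58 and 10.61 with DMSO, 10.80, 10.78, 10.82 and 10.67 with KynA, and 11.00, 10.90, 10.93 and 11.00 with FICZ. These are 3 separate levels within a range of 0.54, where SLC16A6 spanned 3.01. TIPARP had signals of 9.18, 9.20, 9.53 and 9.46 with DMSO, 9.93, 9.66, 10.11 and 10.14 with KynA, and 10.55, 10.29, 10.86 and 10.52 with FICZ, again without overlap. Differences from DMSO over the 10 genes ran from 0.33 for EML1 to 2.22 for NPTX1 with FICZ, and from 0.15 for FGF2 to 0.89 for NPTX1 with KynA. For the AHR targets CYP1B1 and AHRR, the values were 1.07 and 0.97 with FICZ and 0.71 and 0.54 with KynA. They belong to a list of 12 tested AHR targets, of which 6 rose with FICZ, where 0.601% of all tested genes did, and 0 passed with KynA (7 with an unadjusted p under 0.05, as for 3.39% of all tested genes). The list was chosen with earlier results of these data known, and IL1B, STC2 and EREG are among the 6, so the counts are a description. CYP1A2 and NFE2L2 of this list did not pass with FICZ, at 0.27 and 0.16. With KynA, TIPARP (limma adjusted p = 0.0333) and CYP1B1 (0.0134) passed with the replicate number as a block, and AHRR (0.0454) passed without KynA 2. Within the family, r with SLC16A6 was 0.65 for SLC16A13, 0.58 for SLC16A7, 0.44 for SLC16A4, 0.32 for SLC16A3 and −0.28 for SLC16A1.

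**Figure D5:**
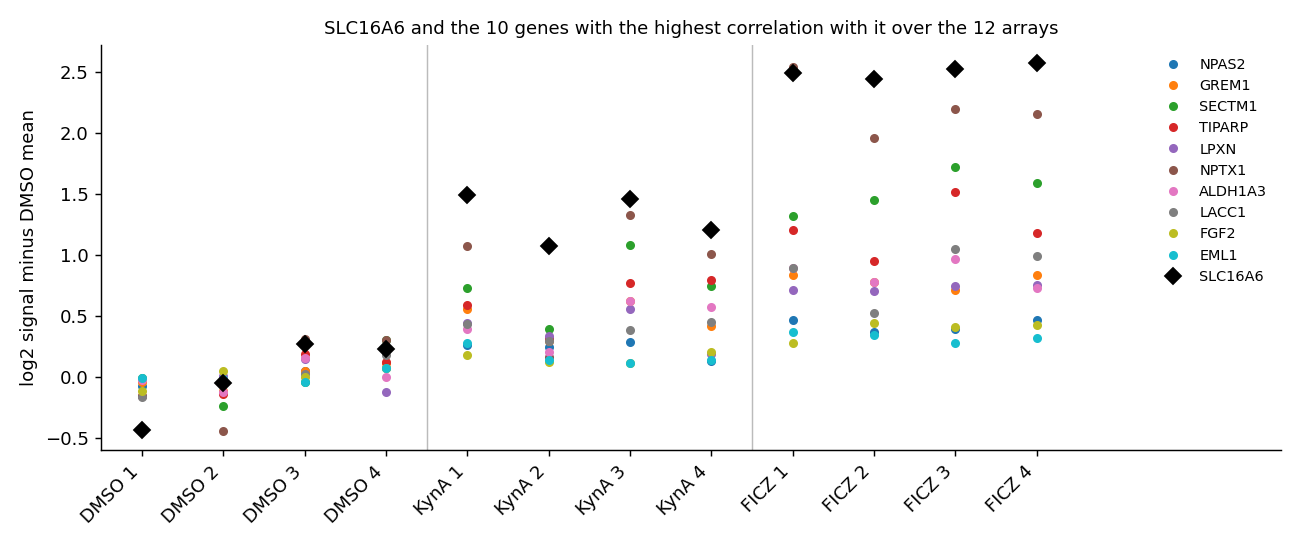
Log2 signal minus the gene's DMSO mean (vertical axis) on each of the 12 arrays (horizontal axis) for SLC16A6 (black diamonds) and the 10 genes with the highest r with it (coloured points). All 11 genes are lowest with DMSO and highest with FICZ on average, and SLC16A6 and NPTX1 have the widest ranges, 3.01 and 2.99.

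AHR binds DNA at sites with the core GCGTG, and promoter windows from RefSeq (GRCh38.p14; 250 bases before to 50 after a start) were searched for these 5 letters on both strands, that is for GCGTG or CACGC. Of all 35116 windows 36.5% held the core. Windows were at hand for SLC16A3, SLC16A4, SLC16A7 and SLC16A14, and 1 of these 4 genes, SLC16A3, had a match. SLC16A6 had no window at hand, so its promoter was not searched. Of the 10 genes most like SLC16A6, 9 had windows and 8 of them had at least 1 match, where 58% of tested genes with windows did. Genes with several starts have more windows. These 10 genes were picked from the same arrays by their change, so the count is a description and was not tested. The window of SLC16A3 and that of TIPARP with the most matches are shown, a family member that did not pass beside a like gene, with the matches in capitals. For SLC16A3 this is 1 of 5 windows, chr17:82234649-82234948 on the + strand, with matches that begin at −216, −89 and −22 from the start. For TIPARP it is 1 of 3, chr3:156674340-156674639 on the + strand, with matches at −208 and −142. A match is a run of letters and not evidence of binding, and no binding was measured.
SLC16A3: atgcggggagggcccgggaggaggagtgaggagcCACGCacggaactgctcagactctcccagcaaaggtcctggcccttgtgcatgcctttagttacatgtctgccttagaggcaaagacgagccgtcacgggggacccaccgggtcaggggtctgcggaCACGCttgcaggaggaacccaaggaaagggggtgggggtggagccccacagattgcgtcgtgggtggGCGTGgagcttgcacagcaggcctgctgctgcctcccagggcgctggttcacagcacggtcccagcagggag
TIPARP: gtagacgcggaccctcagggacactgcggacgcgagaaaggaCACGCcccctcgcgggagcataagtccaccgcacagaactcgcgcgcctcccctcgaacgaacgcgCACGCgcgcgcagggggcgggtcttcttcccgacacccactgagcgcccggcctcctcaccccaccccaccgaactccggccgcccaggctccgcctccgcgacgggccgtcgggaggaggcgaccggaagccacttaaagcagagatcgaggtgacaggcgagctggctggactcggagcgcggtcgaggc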

How the data were processed

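The 12 arrays, 4 per group, measured RNA of U-87MG shCtrl cells. The authors deposited log2 signals per transcript cluster, made with oligo and RMA per the submitters' processing notes; the sources used here do not give the annotation, any filter or the versions. Genes were named by the platform annotation: 13577 of 15759 clusters had 1 symbol, 744 several and 1438 none, and only the first were used. All 12 arrays were fitted with limma 3.58.1 in R 4.3.3, with 1 mean per group, and Benjamini-Hochberg adjustment over 10807 genes; the threshold was an adjusted p of 0.05. The number of arrays limits the precision (median SE 0.106, 9 residual and 5.19 prior degrees of freedom).

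The members and lists were chosen with earlier results of these data known. Genes that could be named were all family members, the neighbours, and the 10 most and 3 least like genes by Pearson's r. The 3 highest and 3 lowest other solute carriers with FICZ were added. Per list, so were up to 6 genes that passed in any comparison and up to 2 more with the smallest p. Not every gene that met this rule is named in the text. VIM, GFAP, MAG and AIF1, outside this rule, were named after their values were seen. Alternatives were another scaling, filter, variance model, cluster rule, array weights, only the groups compared, a replicate block and leaving out each array.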

Additional observations from a re-analysis of the deposited data

Results flagged for a closer look

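In groups of 4 arrays, an array was singled out when its gap to the nearest other array exceeded Dixon's 95% critical value for the group's range. This held for 9 of 147 groups of 49 genes, close to the 1 group in 20 that chance singles out. SLC16A7 had 9.12 on KynA 4, above the next array at 8.75. SLC2A1 had 9.67 on DMSO 2, above 9.45, and 9.96 on KynA 2, above 9.62. AHRR had 8.36 on KynA 2, below the other 3 KynA arrays. KDR had 8.87 on FICZ 3, above 8.61. CKMT2 had 8.61 on FICZ 4, above 8.15. SLC4A4 had 8.10 on DMSO 2, below 8.18. SLC12A5 had 9.26 on FICZ 3, below 9.82, and SLC26A4 had 7.18 on the same array, below 7.97. SLC16A6 had no such array in any group.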

How the results depend on the processing

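Each result was refitted under 9 alternatives that kept all arrays and 12 that left out 1 array. The difference of SLC16A6 between the ligands ran from 1.13 to 1.27 when 1 array was left out; it was chosen on these arrays, so its calls are not counted here. The other 5 tested members gave 15 results and 312 alternative fits, none of which passed (lowest adjusted p 0.143); SLC16A4 was not tested under the filter at the 50th percentile. Some values near 0 changed sign, each time when 1 array was left out. Over all 21 alternatives, with KynA SLC16A3 ran from −0.02 to 0.20, SLC16A7 from −0.05 to 0.10 and NPTN from −0.01 to 0.14. BSG ran from −0.06 to just above 0 (0.00) with KynA, and NPTN from −0.11 to 0.04 with FICZ. The cause was not tested.

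Same-numbered arrays correlated by −0.13 to 0.21 in their deviations, with 6 of 12 pairs over 0.1, the 3 pairs of number 2 among them. Pairing was taken as given only if every pair passed that bar, so the numbers were not used as a block in the reported values. As a hint from the data and not the design, 7 of 12 arrays correlated best, among arrays of the other groups, with their own number. The count expected without pairing was not worked out. With the replicate block SLC16A6 stayed at 2.51, 1.31 and 1.20. Over the gene lists outside the family, the number that passed with KynA was 0 and became 4 with the replicate block, and between the ligands 0 became 2. When 1 array was left out, the number that passed ran from 7 to 10 with FICZ (10 with all arrays). With KynA it ran from 0 to 1, where AHRR passed without KynA 2. In the reported fit 0.851% of all tested genes passed with FICZ, and 0.00925% with KynA and between the ligands. Shares for the block and the left-out arrays are not given here. Whether the lists changed more than all tested genes was therefore not tested. The AHR targets, chosen with earlier results known, are among these lists. SLC2A1 did not pass without a filter (adjusted p = 0.0536), nor HK2 with only the groups compared (adjusted p = 0.0762). Of the 10 genes most like SLC16A6 by Pearson's r, 6 were among the 10 highest by Spearman's rho and 0 by deviations from the group means. Dim members, SLC16A5 and SLC16A14 and the DMSO baseline of SLC16A6, limit what the signal shows.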
